A study of Mus musculus with 31 samples.

Results

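Odorant receptor transcripts were followed through the developing mouse olfactory nerve. The genes described are 416 rows of the count matrix, chosen by their summed counts: their Ensembl identifier maps to an Olfr symbol and their counts over the 31 libraries reach 30. They are 416 of 1277 Olfr genes and 47729 genes of any kind in the table. At least 1 count was found for 974 of the 1277. The minimum used the same counts that are reported below, so the summed counts are descriptions only: 5 members lay exactly at 30 and 8 genes lay at 29. The 416 members held 94.9% of the counts on Olfr genes, and the 12 with the largest sums held 44.7% of the counts on members.

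The libraries came from pieces cut by laser microdissection from sections of Sox10:H2BVenus BAC transgenic mouse embryos, in which Sox10 regulatory sequence drives a nuclear fluorescent protein in the glia. The pieces were olfactory nerve (ON), the olfactory nerve layer (ONL) around the olfactory bulb, which at E16.5 was divided into an outer and an inner part, and the trigeminal nerve (TN), which carries facial touch and pain fibres and Schwann cells. By label there were 4 E11.5 ON, 7 E13.5 ON, 5 E13.5 ONL, 4 E16.5 ON, 4 outer ONL, 4 inner ONL and 3 TN libraries. All groups carry the same transgene and none was otherwise treated, each library pools tissue from several sections, and the fluorescence guided the cut without sorting cells, so axons, glia, vessels and cells at the edge of a piece were all collected.

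Odorant receptors are G protein-coupled receptors in the cilia of olfactory sensory neurons, and each mature neuron chooses a single receptor gene, from a single allele, out of the largest gene family of the mouse genome. Receptor mRNA is also carried down the axon, and receptor identity takes part in sorting axons to their glomeruli in the bulb. Class I receptors resemble those of fish and lie together on chromosome 7, while class II receptors are spread over many clusters.

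By RefSeq synonyms, 74 members were class I, 332 were class II and 10 had no class. GENCODE described 395 as protein coding, 15 as polymorphic pseudogenes, 4 as transcribed unprocessed pseudogenes and 2 as unprocessed pseudogenes. The most members lay on chromosome 7 (115), chromosome 2 (83), chromosome 9 (45) and chromosome 11 (35). The largest genomic cluster on chromosome 2 held 75 members of 246 Olfr genes in the table, and that on chromosome 7 held 75 of 139. The vomeronasal families were sparse at the same minimum, which was reached by 4 of 175 type 1 and 4 of 122 type 2 vomeronasal receptors. Of the trace amine-associated receptors 7 of 16 reached it, against 416 of 1277 Olfr genes.

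Library totals ran from 3512627 to 36705535 counts. At E16.5 the ON and ONL libraries lay between 13379107 and 16800784 and the TN libraries between 30221586 and 32508725. Each library was compared with group means that the study published, by correlation across 1489 genes, which are not independent replicates. The E16.5 libraries all matched their labels, but 10 of the 31 libraries matched another group best. The 4 libraries labelled E11.5 ON and library 1 labelled E13.5 ON matched the E13.5 ONL mean, library 1 labelled E13.5 ONL matched the E13.5 ON mean, and libraries 2 to 5 labelled E13.5 ONL matched the E11.5 ON mean. For these 10 the correlation with the best group was 0.812 to 0.929, against -0.175 to 0.278 with the labelled one. Early libraries are therefore named "labelled", and each early result is given by label and by this second grouping, in which E13.5 ONL has 5 libraries, E13.5 ON 7 and E11.5 ON 4. By label, E13.5 against E11.5 ON mainly sets libraries that matched E13.5 ON against libraries that matched E13.5 ONL. By label, E13.5 ONL against ON mainly sets libraries that matched E11.5 ON against libraries that matched E13.5 ON.

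At E16.5 odorant receptor reads were concentrated in the olfactory nerve. The 4 ON libraries had 385, 330, 236 and 614 RPM on the members, RPM being reads scaled to the library total without TMM. The outer ONL libraries had 27.1, 26.0, 38.6 and 24.1, the inner ONL libraries 17.4, 20.1, 17.6 and 21.3, and the TN libraries 13.2, 38.6 and 24.2. Every ON library lay above every outer ONL, inner ONL and TN library, and the outer and inner ONL did not overlap each other either. In pieces of tissue, fewer cells of a type and less RNA per cell cannot be told apart.

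The number of receptor genes detected followed the reads. Members with over 3 counts numbered 203.5 ± 48.9 (SD, n = 4) in E16.5 ON, 16.3 ± 1.9 (SD, n = 4) in outer ONL, 9.75 ± 0.96 (SD, n = 4) in inner ONL and 13.7 ± 4.2 (SD, n = 3) in TN. Over the 4 ON libraries 370 members passed 3 counts in at least 1 library, 52 in every library and 122 in exactly 1. The effective number of receptor genes, the exponential of the Shannon entropy of the members' shares, was 102, 104, 159 and 177 in the ON libraries, 7.07 to 14.1 in outer ONL, 5.6 to 7.20 in inner ONL and 3.45 to 4.75 in TN. The nerve held a broad mixture in which the leading gene had 2.69% to 5.63% of the reads, while the layer and the TN were each led by 1 gene. That gene was Olfr32 in all 8 ONL libraries (34.7% to 61.8%) and Olfr558 in all 3 TN libraries (64.6% to 74.8%).

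**Figure D1:**
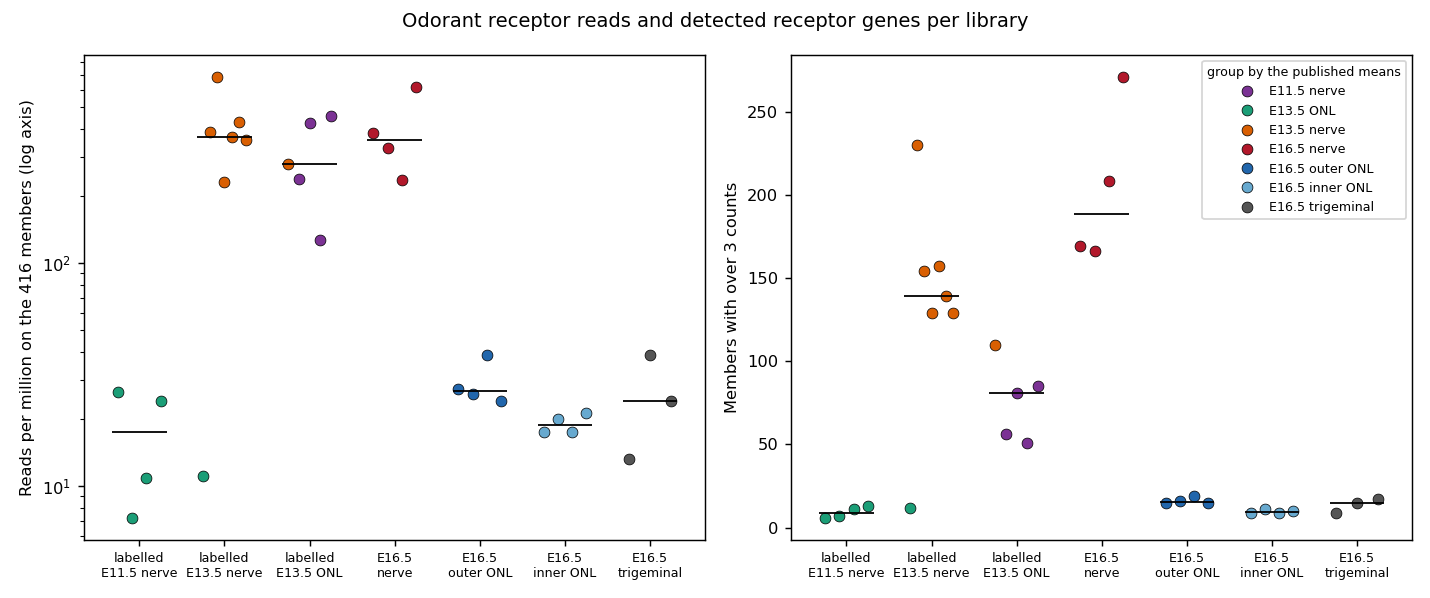
Left, RPM (reads scaled to the library total) on the 416 members (log axis); right, number of members with over 3 counts. Each point is 1 library, placed by its label and coloured by the group whose published mean it matched, and bars are group medians. E16.5 ON libraries lie at 236 to 614 RPM, above every outer ONL, inner ONL and TN library (13.2 to 38.6), and library 1 labelled E13.5 ON lies at 11.1 beside the libraries labelled E11.5 ON.

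In the first comparison, of outer ONL with ON at E16.5, most of the members that could be tested were lower in the layer. Of the 416 members, 71 passed the filter on low counts. At an adjusted p under 0.05 by edgeR's quasi-likelihood test, 57 were lower and 3 were higher in outer ONL. Over all 17800 genes tested, 15.4% were called lower and 10.3% higher. Members that entered only because they were high in the nerve had to differ, so the count is not support for a general fall. With these 2 groups alone 23 members passed the filter and 17 were called (24.2% of all genes), against 16 of 23 with the replicate number as a block (31.4%).

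The receptors of the E16.5 nerve that were called lower in the layer with the smallest adjusted p were largely class I genes of chromosome 7. Olfr578 (chr7:102981608-102989324, minus strand) had 4.27, 1.30, 2.27 and 9.79 CPM (counts scaled to a TMM-adjusted library total) in the ON libraries, 0.0628 in 1 outer ONL library and 0 elsewhere in the ONL and TN (adjusted p = 0.000177, edgeR, outer ONL against ON). Olfr669 (chr7:104934240-104940477, plus strand) had 12.4, 4.70, 1.43 and 4.92 CPM in ON, 0.213 in 1 outer ONL library and 0 in inner ONL and TN, so that the ON mean was at least 27.8-fold higher than inner ONL and at least 53.9-fold higher than TN, against a floor of 3 counts per library. Olfr672 (chr7:104995760-105002029, minus strand) had 2.16, 1.05, 11.2 and 7.08 CPM in ON and 0 in outer ONL, at least 26.4-fold higher in ON. For these 3 receptors every ON library lay above every ONL and TN library.

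Smaller class I members showed the same order. Olfr544 (chr7:102482031-102488313, minus strand) had 0.557, 5.44, 3.38 and 2.16 CPM in ON and at most 0.153 in outer ONL (log2 fold change -5.34 ± 0.97 SE, adjusted p = 0.00142, edgeR). Olfr689 (chr7:105311165-105319662, plus strand) had 0.742, 2.1, 1.17 and 2.71 CPM in ON and 0 in outer ONL, at least 8.25-fold lower, with 0.120 in 1 inner ONL library. Olfr656 (chr7:104613955-104621603, plus strand) had 0.866, 4.39, 0.974 and 0.774 CPM in ON and 0 in outer ONL, at least 8.60-fold lower, with 61.7% of its counts over the series in ON library 2. No other Olfr gene aligned to its coding sequence over 300 bases, whereas those of Olfr544 and Olfr689 are 96.6% and 95.3% identical to Olfr545 and Olfr687, so reads of these pairs may have been split or lost in counting.

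Receptors outside that cluster had the same distribution. Olfr718-ps1 (chr5:143134014-143147581, minus strand), which has no class by its synonyms and is protein coding in GENCODE despite its name, had 1.30, 3.40, 3.25 and 2.43 CPM in ON and 0.0767 in 1 outer ONL library (adjusted p = 0.000119, the smallest of any member in outer ONL against ON, edgeR). Olfr485 (chr7:108158918-108159871, minus strand), of class II, had 0.866, 2.29, 2.08 and 12.8 CPM in ON and Olfr19 (chr16:16672228-16676405, minus strand), also of class II, had 7.85, 0.556, 1.49 and 3.10. Neither passed 0.0711 CPM in any ONL or TN library. Levels of these receptors differed by over 10-fold between ON libraries for Olfr485 and Olfr19, and the libraries that were high differed from gene to gene.

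That unevenness was general. Over 50% of the counts of 168 members came from 1 library, 22 members passed 3 counts in exactly 1 library, and 55 passed it in 10 or more. Olfr1054 (chr2:86332135-86335433, minus strand) had 17.3 CPM in ON library 1, 1.88 in library 3 and 0 in libraries 2 and 4, and 79.7% of its counts were in ON library 1. Olfr827 (chr10:130203049-130214403, minus strand) had 9.77 and 11.2 CPM in ON libraries 2 and 4, 1.10 in library 3 and 0 in library 1. Olfr1395 (chr11:49142274-49150453, plus strand) had 6.99 and 14.5 CPM in ON libraries 2 and 4, against 0.309 and 1.17 in libraries 1 and 3.

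**Figure D2:**
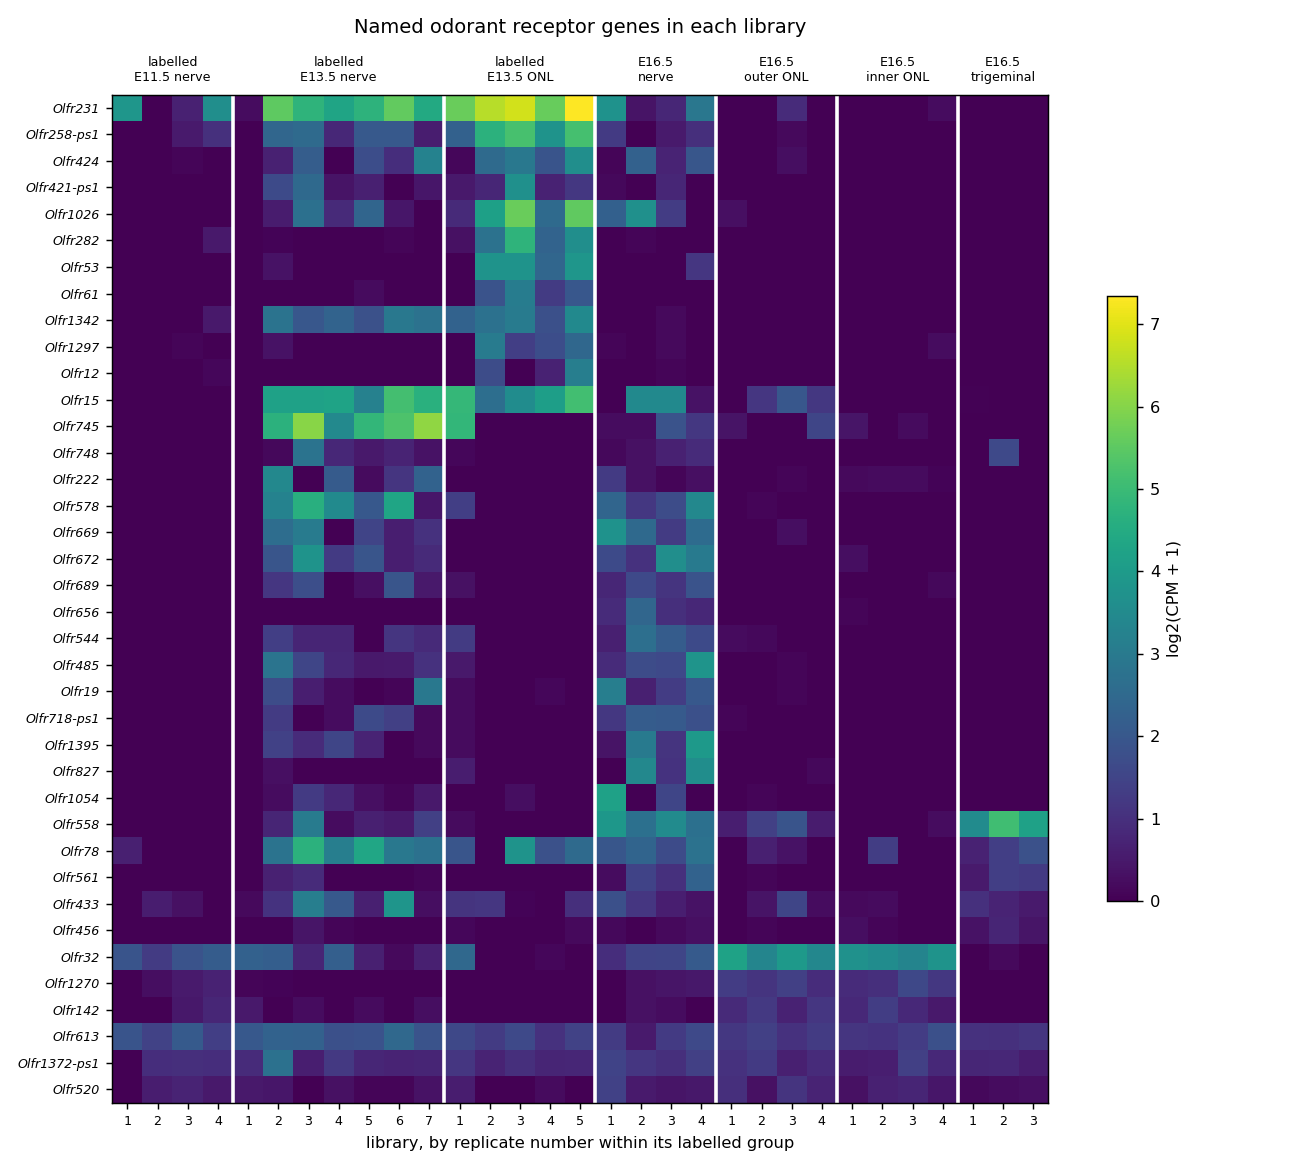
Levels of the 38 named receptor genes, as log2(CPM + 1), in each of the 31 libraries, in blocks by label; columns carry replicate numbers. Different E16.5 ON libraries lead for different genes, Olfr32 is bright in the 8 ONL libraries (9.02 to 17.9 CPM), Olfr558 in the 3 TN libraries (10.7 to 33.0 CPM), and Olfr613 has counts in every column (0.433 to 4.59 CPM).

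The 3 members that were higher in outer ONL than in ON were neighbours on chromosome 2 and all belonged to receptor family MOR227. They are Olfr32 (chr2:90136273-90142296), Olfr1270 (chr2:90145255-90153091) and Olfr142 (chr2:90250130-90257592), all on the minus strand. The genes beside them had few counts, with 8 counts over the series for Olfr1269, 0 for Olfr1506 and 20 for Olfr1271. Coding bases 331 to 390 of Olfr32 and the matching stretch of its neighbours (GRCm38, GENCODE M21) show how far short reads can separate them, with bases that differ from Olfr32 in capitals.
Olfr32 (chr2:90138748-90138807, minus strand): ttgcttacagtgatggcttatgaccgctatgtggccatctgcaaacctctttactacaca
Olfr1270 (chr2:90149612-90149671, minus strand): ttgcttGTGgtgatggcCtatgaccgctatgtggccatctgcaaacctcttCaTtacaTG
Olfr142 (chr2:90252594-90252653, minus strand): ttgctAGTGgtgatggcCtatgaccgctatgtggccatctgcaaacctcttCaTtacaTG
Over the coding sequence Olfr32 was 85.9% identical to Olfr1270 and 80.5% to Olfr142, and Olfr1270 and Olfr142 were 84.3% identical. The nearest copy of Olfr142 in the annotation was Olfr1271 at 94.6%, and Olfr1270 overlaps the pseudogene Gm4222 on the opposite strand, which an unstranded library cannot separate.

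Olfr32 had 17.9, 9.10, 14.4 and 9.58 CPM in the outer ONL libraries and 12.2, 10.9, 9.02 and 12.7 in the inner ONL libraries. It had 0.928, 1.85, 1.88 and 3.21 in ON and 0, 0.144 and 0 in TN. Every ONL library was above every ON library, and every ON library above every TN library. The log2 fold change was 2.59 ± 0.41 SE for outer ONL against ON (adjusted p = 0.000171), 2.45 ± 0.41 SE for inner ONL against ON (adjusted p = 0.000126), 5.23 ± 0.68 SE for ON against TN (adjusted p = 1.95e-05) and 7.82 ± 0.68 SE for outer ONL against TN (adjusted p = 1.47e-07, all edgeR). Outer and inner ONL were not separated for Olfr32 (-0.13 ± 0.38 SE, adjusted p = 0.878).

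Olfr1270 and Olfr142 were about an order of magnitude lower than Olfr32 in counts but had the same order of groups. Olfr1270 had 1.46, 1.13, 1.64 and 0.915 CPM in outer ONL, 0.874, 0.977, 2.04 and 1.26 in inner ONL, 0, 0.247, 0.325 and 0.387 in ON, and 0 in the TN libraries. Its log2 fold change from ON was 2.29 ± 0.66 SE in outer ONL (adjusted p = 0.0171) and 2.34 ± 0.66 SE in inner ONL (adjusted p = 0.00973, edgeR), and outer ONL was at least 11.8-fold above TN. Olfr142 had 0.844, 1.32, 0.640 and 1.22 CPM in outer ONL, 0.807, 1.5, 0.785 and 0.422 in inner ONL, 0, 0.247, 0.195 and 0 in ON, and 0 in TN. Its log2 fold change from ON was 3.08 ± 0.82 SE in outer ONL (adjusted p = 0.0111) and 2.90 ± 0.82 SE in inner ONL (adjusted p = 0.0103, edgeR). For both genes every ONL library was above every ON library.

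The ONL genes were also present in the early libraries that matched the E13.5 ONL mean. Olfr32 had 2.77, 1.44, 2.66 and 3.42 CPM in the libraries labelled E11.5 ON and 3.83 in library 1 labelled E13.5 ON. It had 0.148 to 4.56 in the 7 libraries that matched E13.5 ON, which overlap those 5, and 0, 0, 0.0829 and 0 in the 4 that matched E11.5 ON. By the second grouping Olfr32 was called higher in E13.5 than in E11.5 nerve (adjusted p = 5.14e-06) and did not pass between E13.5 ONL and nerve (0.49 ± 0.55 SE, adjusted p = 0.557, edgeR). By label neither comparison passed (adjusted p = 0.835 and 0.390).

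The layer contains the glia called olfactory ensheathing cells and, in its inner part, tissue next to the bulb, and the ensheathing markers were higher in the layer together with these receptors. Of 8 ensheathing and Schwann cell genes, 6 were higher in outer ONL than in ON and none lower (median log2 fold change 2.31, against -0.05 over all genes), with Npy, a neuropeptide of ensheathing cells, at 5.56 ± 0.35 SE (adjusted p = 1.66e-08, edgeR). Their summed level was 20480 to 36420 CPM in outer ONL and 1766 to 4047 in ON. Of 8 bulb neuron genes, 2 were higher and none lower (median 2.28). Among them were Gad1, which makes GABA (2.90 ± 0.72 SE, adjusted p = 0.00606), and Tbr1, a transcription factor of projection neurons (2.69 ± 0.76 SE, adjusted p = 0.0142, edgeR). From outer to inner ONL 8 of 8 bulb genes were higher (median 2.96, against -0.02 over all genes). Of the 8 ensheathing and Schwann cell genes none was higher and 3 were lower there (median -0.17). Olfr32, Olfr1270 and Olfr142 were not called there. From ON to inner ONL 6 of the 8 ensheathing and Schwann cell genes were higher and 2 lower (median 2.42). At E13.5 by the second grouping 6 were higher and 2 lower in ONL than in nerve (median 1.09). In that comparison Olfr1270 was called higher and Olfr32 and Olfr142 were not. The summed bulb list was 13.6 to 162 CPM in outer ONL, 91.7 to 193 in ON and 424 to 803 in inner ONL. The part of these cells in the receptor result was not tested.

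**Figure D3:**
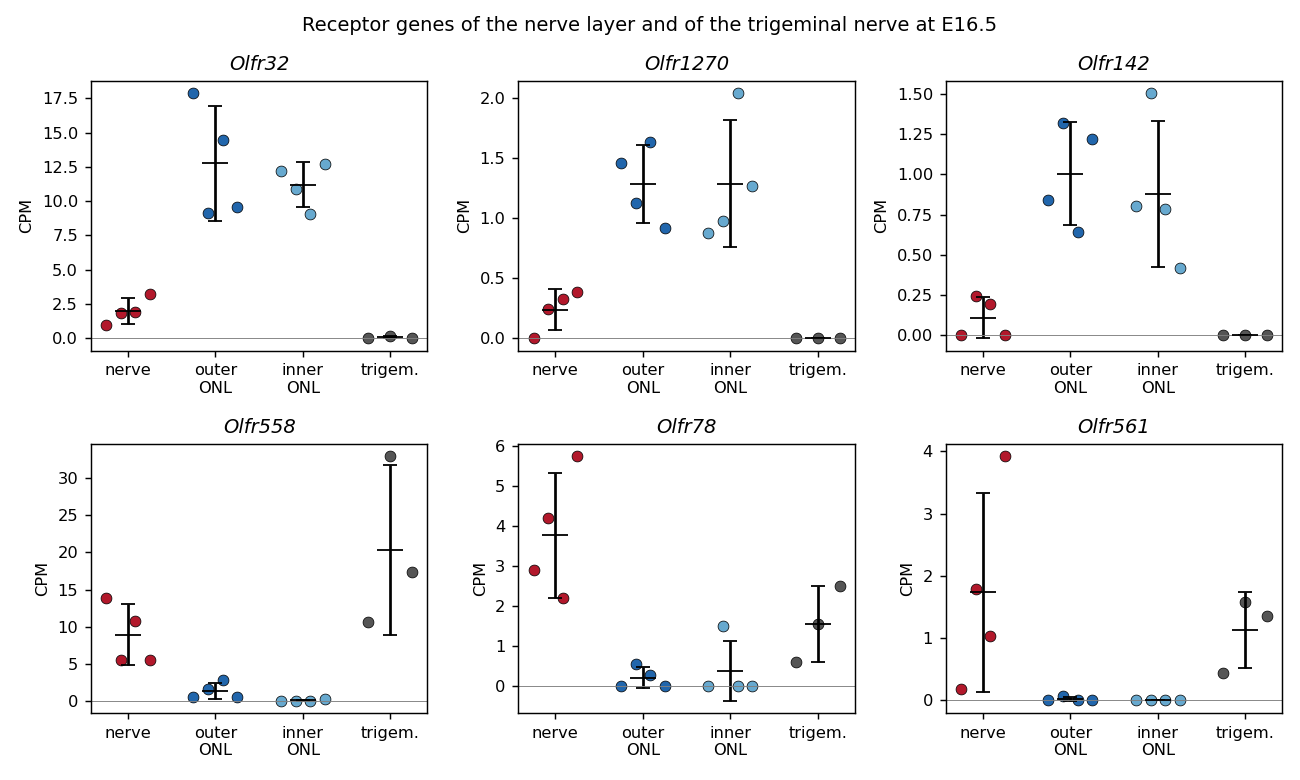
CPM of 6 receptor genes in the 15 E16.5 libraries, 1 panel a gene with its own linear axis; points are libraries, and horizontal marks and bars are group means and SD. Olfr32, Olfr1270 and Olfr142 (top) are above every ON and TN library in all 8 ONL libraries, and Olfr558 (bottom left) is highest in TN, at 10.7 to 33.0 CPM.

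The second comparison, of inner ONL with ON, gave 63 members lower and 3 higher of the 71 tested, against 21.2% lower and 19.1% higher over all genes. The count of lower members has the same limit, since members that entered only through the nerve had to differ. The 3 higher members were again Olfr32, Olfr1270 and Olfr142. The lowest adjusted p among members was that of Olfr558, a class I receptor, which had 13.9, 5.56, 10.7 and 5.53 CPM in ON, 0, 0, 0 and 0.181 in inner ONL (adjusted p = 2.35e-06, edgeR). Olfr15 (chr16:3830878-3844747, plus strand), a class II receptor, had 0, 10.1, 10.1 and 0.277 CPM in ON and 0 in inner ONL, at least 24.3-fold lower. ON library 1 had no count of Olfr15, so the groups met at 0.

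Between outer and inner ONL only 2 of the 71 members tested were called, both lower in the inner part (7.54% of all genes were called lower and 10.1% higher). DESeq2 also called 2 lower and 0 higher, against 1671 and 1888 of 17800 over all genes. In edgeR 5 members had an unadjusted p under 0.05, as did 4989 of the 17800 genes. With all 31 libraries 1 was called, as without any 1 library other than outer ONL library 1. With the 2 groups alone or the replicate block 0 of 6 members tested were called. Over all 15717 genes tested the 2 groups alone gave 1623 higher and 1208 lower, and the replicate block 1598 and 1123. Olfr558 had 0.537, 1.63, 2.77 and 0.488 CPM in outer ONL, all above the single inner ONL library with a count (adjusted p = 0.00252, edgeR). Olfr15 had 0, 1.26, 2.99 and 1.28 CPM in outer ONL and 0 in inner ONL, at least 6.55-fold lower (adjusted p = 0.0442, edgeR).

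The receptor reads of the trigeminal nerve fell on few members, with 64.6% to 74.8% of them on Olfr558. Of 71 members tested, 64 were higher in ON than in TN and none was lower (15.2% higher and 11.7% lower over all genes). Members that passed the filter only because they were high in ON had to differ here too, so the count is not support for a general difference. By DESeq2 44 were higher and 0 lower, against 2924 and 2275 of 17800 over all genes. In edgeR 67 members had an unadjusted p under 0.05 in either direction, as did 6652 of the 17800 genes. With these 2 groups alone 56 of 62 were higher and 1, Olfr558, was lower (2543 and 2143 of 16653 over all genes). The 7 that were not called were Olfr558, Olfr78, Olfr561, Olfr433, Olfr62, Olfr613 and Olfr1372-ps1, named after their values were seen. The TN libraries had 82.6%, 84.9% and 86.7% of their receptor reads on class I members, against 24.2% to 33.98% in ON and 11.7% to 21.03% in the ONL.

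The TN reads came mainly from 3 class I genes within a stretch of chromosome 7. They are Olfr558 (chr7:102702215-102712064, plus strand), Olfr78 (chr7:102738511-102759471, minus strand) and Olfr561 (chr7:102771221-102776857, plus strand), of families MOR18, MOR18 and MOR14. Outside the nose, Olfr78 is known from the oxygen-sensing cells of the carotid body and from vascular smooth muscle, and Olfr558 from blood vessels. Their matching coding stretches differ at more positions than those of the MOR227 genes, with bases that differ from Olfr558 in capitals.
Olfr558 (chr7:102709591-102709650, plus strand): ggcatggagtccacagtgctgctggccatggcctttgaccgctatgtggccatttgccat
Olfr78 (chr7:102742621-102742680, minus strand): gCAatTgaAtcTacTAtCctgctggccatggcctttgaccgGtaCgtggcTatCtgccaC
Olfr561 (chr7:102774856-102774915, plus strand): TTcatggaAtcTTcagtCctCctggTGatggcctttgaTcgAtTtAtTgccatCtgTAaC
Over the coding sequence Olfr558 was 65.5% identical to Olfr78 and 58.8% to Olfr561. Olfr558 overlaps the pseudogene Gm45688 on the opposite strand, and Olfr78 overlaps Olfr560, a receptor on the same strand that is not a row of the table.

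Olfr558 had 10.7, 33.0 and 17.3 CPM in TN, against 5.53 to 13.9 in ON, 0.488 to 2.77 in outer ONL and at most 0.181 in inner ONL. TN and ON overlapped and the difference missed the threshold (log2 fold change of ON against TN -1.13 ± 0.53 SE, adjusted p = 0.127), which it passed with the 2 groups alone, and outer ONL was 3.92 ± 0.59 SE lower than TN (adjusted p = 6.11e-05, edgeR). Olfr561 had 0.432, 1.59 and 1.36 CPM in TN, 0.186, 1.79, 1.04 and 3.93 in ON and 0.0628 in 1 outer ONL library, and was called lower in outer ONL than in TN (adjusted p = 0.00273, edgeR). Olfr78 had 0.613, 1.55 and 2.5 CPM in TN, 2.91, 4.20, 2.21 and 5.75 in ON, and 0, 0.565, 0.284 and 0 in outer ONL, a difference of outer ONL from TN of -2.81 ± 1.15 SE that missed the threshold (adjusted p = 0.0742, edgeR). The nearest other receptors had 114 (Olfr557), 154 (Olfr33) and 21 (Olfr559) counts over the series.

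Like Olfr558 and Olfr561, genes of more than 1 cell list were lower in outer ONL than in TN. Of 6 smooth muscle and pericyte genes, 5 were lower and none higher (median log2 fold change -1.54, against -0.00393 over all genes). Of 4 trigeminal sensory neuron genes tested, 2 were lower and none higher (median -1.32). The summed trigeminal list was 5.68 to 15.7 CPM in outer ONL and 193 to 258 in TN. Between ON and TN 1 smooth muscle and pericyte gene was higher and 1 lower (median 0.10, against 0.03). Myh11, smooth muscle myosin, had 78.1 ± 47 CPM (SD, n = 3) in TN, 47.0 ± 29 (SD, n = 4) in ON, 7.21 ± 3.4 (SD, n = 4) in outer ONL and 0.498 ± 0.30 (SD, n = 4) in inner ONL. Acta2, smooth muscle actin, had 611 ± 183 CPM in TN, 1168 ± 828 in ON, 57.7 ± 37 in outer ONL and 5.29 ± 5.8 in inner ONL. The summed smooth muscle and pericyte list ran from 766 to 1438 CPM in TN, 686 to 2808 in ON, 216 to 433 in outer ONL and 135 to 197 in inner ONL. No gene of it was at 0 in any of these groups. The part of either list in the receptor result was not tested.

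Other receptors with reads in TN were few and low. Olfr433 had 1.04, 0.649 and 0.441 CPM, Olfr456 had 0.288, 0.685 and 0.331, and Olfr748 had 0, 2.06 and 0. Olfr748 therefore came from TN library 2 alone. Olfr456 and Olfr748 are 96.3% and 96.0% identical to Olfr457 and Olfr746.

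Outer ONL was compared with TN directly as well. Of 71 members, 7 were higher and 2 lower in outer ONL (15.1% higher and 16.2% lower over all genes). The lower pair was Olfr558 and Olfr561. The higher ones were Olfr32, Olfr1270, Olfr142, Olfr15, Olfr745, Olfr520 and Olfr549, the last named after its values were seen. Olfr745 (chr14:50639388-50643885, plus strand) had 0.307, 0, 0 and 1.89 CPM in outer ONL and 0 in TN, at least 5.05-fold higher, and most of that came from outer ONL library 4. Olfr520 had 0.997, 0.251, 1.14 and 0.671 CPM in outer ONL and 0.108, 0.180 and 0.220 in TN (2.09 ± 0.73 SE, adjusted p = 0.0362, edgeR).

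A few members did not pass in the E16.5 comparisons despite counts in every E16.5 group. Olfr613 (chr7:103548074-103555506, plus strand), a class I receptor, was the only member with over 3 counts in all 31 libraries, at 0.433 to 4.59 CPM. It did not pass in any comparison among the E16.5 groups, with log2 fold changes of -0.06 ± 0.45 SE (outer ONL against ON, adjusted p = 0.948), 0.20 ± 0.45 SE (inner ONL against ON, adjusted p = 0.760) and 0.34 ± 0.48 SE (ON against TN, adjusted p = 0.646, edgeR). Olfr1372-ps1 (chr11:52154722-52168159, minus strand) had 0.471 to 1.79 CPM over the E16.5 libraries. It overlaps the long noncoding RNA gene Gm26551 on the same strand. Over 933 aligned bases of its transcript this pseudogene is 97.3% identical to Olfr1383, so its counts are uncertain.

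The genes that mark sensory neurons and carry out odorant transduction followed the receptors in part. Of 16 genes for receptor signalling and transport, 10 were lower and 3 higher in outer ONL than in ON (median log2 fold change -1.41, against -0.05 over all genes), and 12 were higher and none lower in ON than in TN. Rtp1 and Rtp2, which carry odorant receptors to the cell surface, fell steeply, Rtp1 from 48.8 ± 19 CPM (SD, n = 4) in ON to 1.75 ± 1.4 in outer ONL, 0.419 ± 0.69 in inner ONL and 0.0841 ± 0.15 in TN (outer ONL against ON -4.85 ± 0.78 SE, adjusted p = 0.000184), and Rtp2 from 36.7 ± 17 to 1.72 ± 0.64, 0.300 ± 0.21 and 0.0975 ± 0.11 (-4.50 ± 0.48 SE, adjusted p = 2.66e-06, edgeR). Cnga2, the transduction channel, fell by 5.06 ± 0.59 SE (adjusted p = 7.08e-06) and Gnal, the olfactory G protein, by 1.89 ± 0.27 SE (adjusted p = 6.32e-05), while Adcy3, the adenylyl cyclase, was not called (-0.35 ± 0.23 SE, adjusted p = 0.292, edgeR). Stoml3, a stomatin-like protein of the cilia, and Omp, the marker of mature neurons, stood out against TN (8.37 ± 0.66 SE and 5.96 ± 0.44 SE, adjusted p = 1.22e-07 and 6.07e-08, edgeR).

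Omp declined in steps from ON to outer and inner ONL. It had 39.4 ± 11 CPM in ON, 12.8 ± 1.9 in outer ONL, 4.48 ± 1.6 in inner ONL (SD, n = 4 each) and 0.656 ± 0.46 (SD, n = 3) in TN, with changes of -1.70 ± 0.31 SE from ON to outer ONL (adjusted p = 0.000556) and -1.47 ± 0.32 SE from outer to inner ONL (adjusted p = 0.00356, edgeR). Gap43, a growth cone protein of immature neurons, was not called between outer ONL and ON (-0.86 ± 0.46 SE, adjusted p = 0.202) and was higher in inner ONL than in ON (1.82 ± 0.47 SE, adjusted p = 0.00503, edgeR). Of the 12 immature neuron genes, 9 were higher and 3 lower in inner ONL than in ON (median 1.72). In outer ONL 3 were lower and 2 higher than in ON (median -0.58), led by Gng8 (-2.09 ± 0.26 SE, adjusted p = 1.12e-05) and Nrp1 (-1.87 ± 0.25 SE, adjusted p = 2.67e-05, edgeR). Reep1, of the receptor transport list, went the other way, from 25.1 ± 6.3 CPM in ON to 59.99 ± 9.5 in outer ONL and 202 ± 41 in inner ONL (2.97 ± 0.20 SE for inner ONL against ON, adjusted p = 9.72e-09, edgeR); it is not confined to sensory neurons. Cngb1, a channel subunit, was also higher in outer ONL (1.37 ± 0.33 SE, adjusted p = 0.00515, edgeR).

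Regulators of receptor choice were lower in the layer. Of 11 such genes, 7 were lower and none higher in outer ONL than in ON (median -1.99, against -0.05 over all genes), and 4 were higher and none lower in ON than in TN. Lhx2, a homeodomain protein that binds receptor enhancers, had 66.4 ± 30 CPM in ON, 3.21 ± 2.6 in outer ONL, 8.67 ± 3.6 in inner ONL and 0.459 ± 0.53 in TN (outer ONL against ON -4.42 ± 0.61 SE, adjusted p = 4.15e-05). Ebf1, of the Olf/Ebf family, was 1.99 ± 0.28 SE lower in outer ONL than in ON (adjusted p = 5.66e-05) but was not called between ON and TN (0.48 ± 0.30 SE, adjusted p = 0.263), and Ebf2 was 2.97 ± 0.35 SE lower in outer ONL (adjusted p = 6.94e-06). Ldb1, the cofactor of Lhx2, was not called in outer ONL (-0.40 ± 0.19 SE, adjusted p = 0.156, edgeR). Emx2 was 3.26 ± 0.43 SE higher in ON than in TN (adjusted p = 2.40e-05, edgeR).

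The E16.5 nerve pieces also held genes of the epithelium. All 5 sustentacular cell genes tested, of 6 listed, were lower in outer ONL than in ON, and all 5 were higher in ON than in TN. Cyp2g1, an enzyme of sustentacular cells, had 22.4 ± 14 CPM (SD, n = 4) in ON and at most 0.188 in any ONL or TN library (outer ONL against ON, adjusted p = 3.63e-07, edgeR), and Cyp2a5 had 12.4 ± 8.8 CPM in ON (SD, n = 4). The summed sustentacular level was 53.5 to 112 CPM in ON and at most 1.19 in the ONL and 0.938 in TN, and Ugt2a1, the listed gene not tested, was at 0 in the ONL and in TN. Of 4 neuron progenitor genes, 3 were lower in outer ONL and none higher, Neurod1 and Neurog1 first, and their summed level was 43.8 to 166 CPM in ON and 3.53 to 15.2 in outer ONL. Epithelial genes therefore moved with the receptors across the E16.5 groups, and their part in the receptor result was not tested.

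Of 5 vomeronasal neuron genes 4 were tested, of which 1, Gnao1, was lower in outer ONL than in ON (-1.27 ± 0.42 SE, adjusted p = 0.0340, edgeR). In inner ONL 3 of the 4 were higher and none lower, both against ON (median 1.93) and against outer ONL (median 2.48), and between ON and TN 1 was higher and 1 lower. Trpc2, the channel that defines these neurons, was the listed gene at 0. Of 6 trigeminal sensory neuron genes 4 were tested and 1, Prph, was lower in outer ONL than in ON (-3.33 ± 0.43 SE, adjusted p = 2.05e-05, edgeR). Between ON and TN 2 were higher and 2 lower, and their summed level was 193 to 258 CPM in TN and 26.1 to 37.5 in ON. Of 6 smooth muscle and pericyte genes, 5 were lower and 1 higher in outer ONL than in ON (median -1.82), with Pdgfrb and Myh11 first among those lower (-2.0 ± 0.24 SE and -2.76 ± 0.54 SE, adjusted p = 8.25e-06 and 0.000935, edgeR).

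**Figure D4:**
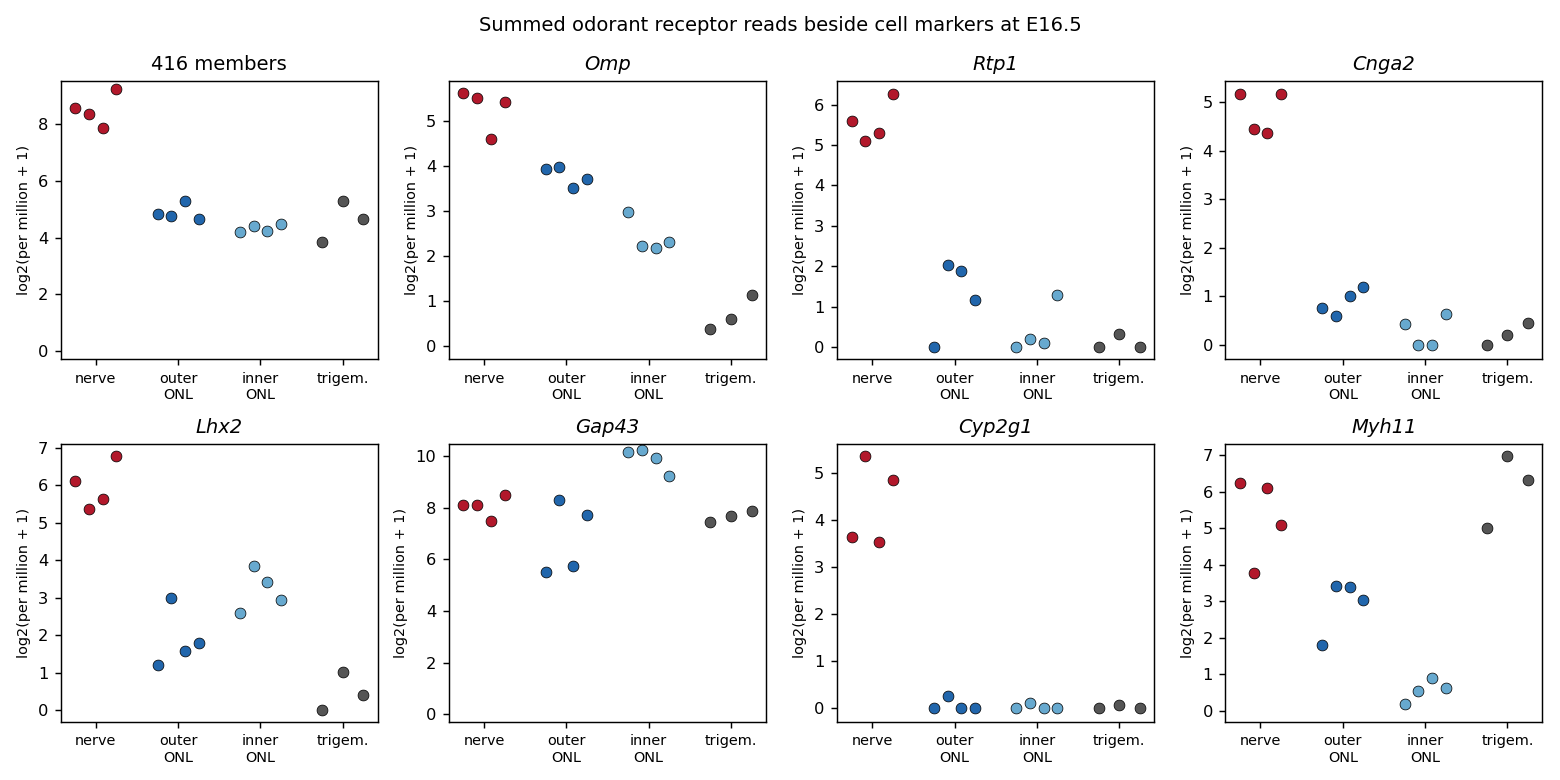
Summed reads on the 416 members (RPM) and CPM of 7 other genes in the 15 E16.5 libraries, as log2(value + 1); points are libraries. Omp steps down from ON to outer ONL, inner ONL and TN, Rtp1 and Cnga2 drop from ON to the other groups as the receptors do, Cyp2g1 is near 0 outside ON, Gap43 is highest in inner ONL, and Myh11 is high in ON and TN.

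The early libraries that matched E11.5 ON had reads on fewer receptors. Libraries 2 to 5 labelled E13.5 ONL had 239, 426, 128 and 458 RPM on the members, and 56, 81, 51 and 85 members passed 3 counts. The effective number was 13.48, 18.7, 13.9 and 15.7, and class I receptors had 2.68% to 6.21% of the reads. The 7 libraries that matched E13.5 ON had 231 to 686 RPM, 110 to 230 members over 3 counts, effective numbers of 45.1 to 104 and 16.4% to 34.9% class I. The 5 that matched E13.5 ONL had 7.22 to 26.5 RPM and 6 to 13 members. The 4 early nerve libraries overlapped E13.5 nerve in summed reads and lay apart from it in number, evenness and class.

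**Figure D5:**
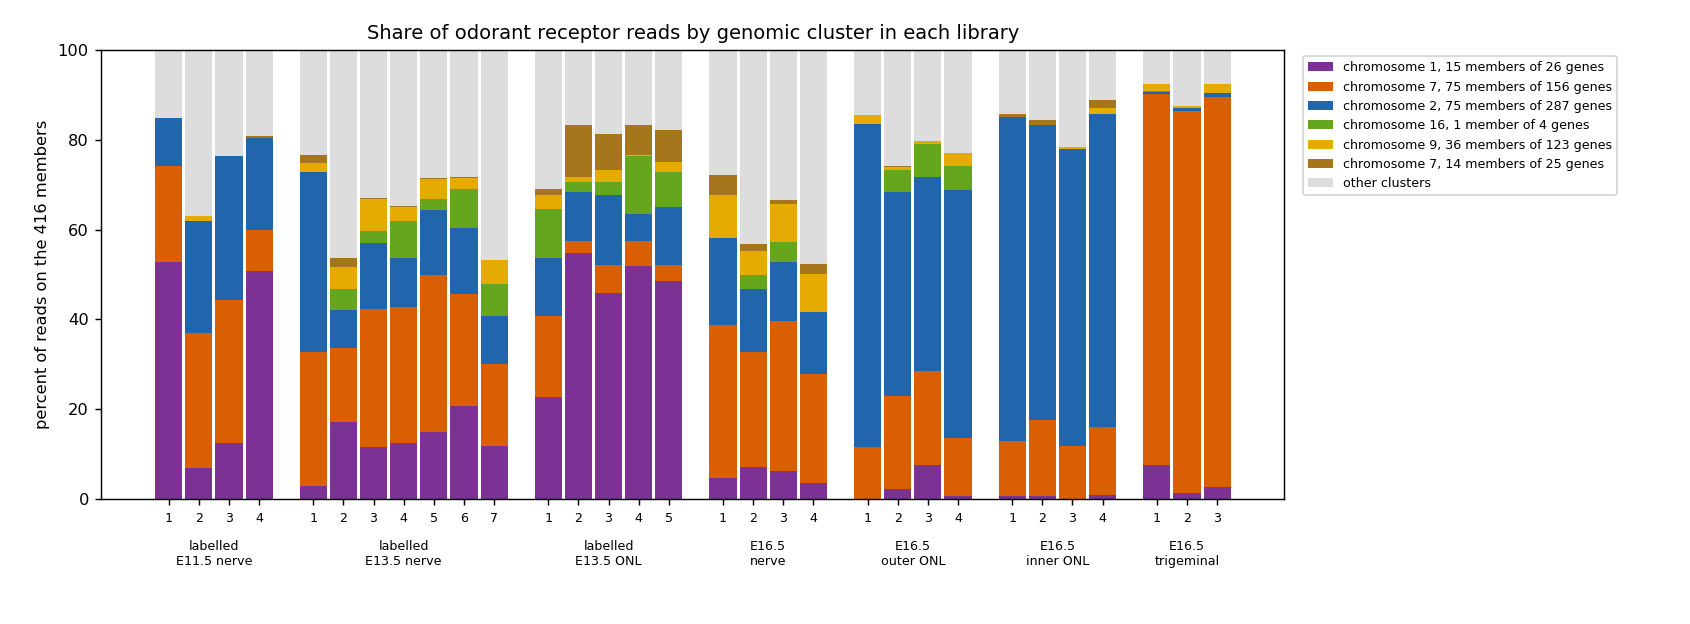
Percent of reads on the 416 members that fell in each of the 6 genomic receptor clusters with the most reads, and in the rest, 1 bar a library in blocks by label. The chromosome 1 cluster (purple) has 45.9% to 54.8% in libraries 2 to 5 labelled E13.5 ONL and 50.9% and 52.7% in libraries 4 and 1 labelled E11.5 ON, the chromosome 7 class I cluster (orange) has 82.6% to 86.7% in TN, and the long chromosome 2 cluster (blue), which holds Olfr32, has 43.2% to 72.0% in the ONL at E16.5.

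Olfr231 led those early libraries. This class II receptor of family MOR105 (chr1:174113211-174121162, minus strand) had 92.7, 113, 48.4 and 161 CPM in libraries 2 to 5 labelled E13.5 ONL, or 29.5% to 40.0% of the receptor reads. In the 7 libraries that matched E13.5 ON it had 18.5 to 49.5 CPM with a median of 26.1, in E16.5 ON 12.3, 0.309, 0.715 and 6.53, and in TN 0. The libraries labelled E11.5 ON had 13.55, 0, 0.585 and 11.3, the first and last on 49 and 109 counts. Olfr231 is also the member with the largest count, 17387 over the series, and per kilobase of annotated exon (3341 counts) only Olfr258-ps1 of the same cluster was higher (3670 counts). It was lower in E13.5 than in E11.5 nerve by the second grouping without passing (-1.64 ± 0.75 SE, adjusted p = 0.0855), and by label it was 1.83 ± 0.85 SE higher in ONL than in nerve at E13.5 (adjusted p = 0.131, edgeR).

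The other 3 MOR105 genes named here lie beside it. Olfr424 (chr1:174131517-174138257), Olfr258-ps1 (chr1:174140408-174143254) and Olfr421-ps1 (chr1:174151481-174152530) are all on the plus strand, transcribed away from Olfr231, and the matching stretches (bases that differ from Olfr231 in capitals) show that they are distinct sequences.
Olfr231 (chr1:174117625-174117684, minus strand): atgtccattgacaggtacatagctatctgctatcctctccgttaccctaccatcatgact
Olfr424 (chr1:174137097-174137156, plus strand): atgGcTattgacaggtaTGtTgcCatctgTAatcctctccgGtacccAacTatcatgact
Olfr258-ps1 (chr1:174142554-174142613, plus strand): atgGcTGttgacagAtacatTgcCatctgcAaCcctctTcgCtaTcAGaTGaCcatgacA
Olfr421-ps1 (chr1:174151869-174151928, plus strand): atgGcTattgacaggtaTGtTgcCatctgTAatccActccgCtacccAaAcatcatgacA
Their identity to Olfr231 was 69.8%, 69.8% and 69.5%. Olfr258-ps1, a transcribed pseudogene, had 25.2, 36.2, 12.5 and 34.9 CPM in libraries 2 to 5 labelled E13.5 ONL and at most 4.85 in any other library. It was called higher in E13.5 ONL than nerve by label (3.27 ± 0.84 SE, adjusted p = 0.0113) and lower there by the second grouping (-3.33 ± 0.86 SE, adjusted p = 0.00354), under which it was also lower in E13.5 than in E11.5 nerve (-3.23 ± 0.67 SE, adjusted p = 0.000459, edgeR). Olfr424 had 4.85, 6.65, 2.74 and 11.3 CPM in the same 4 libraries and up to 8.53 in E13.5 nerve. Olfr421-ps1 had 0.741, 11.8, 0.622 and 1.29, so that 1 library held 70.6% of its counts.

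A second early group was nearly restricted to those 4 libraries. Olfr282 (chr15:98431225-98438638, plus strand) had 5.75, 26.6, 4.02 and 11.2 CPM in them and at most 0.415 in any other library. It was 7.58 ± 0.85 SE lower in E13.5 than in E11.5 nerve by the second grouping (adjusted p = 4.27e-07), and by label it was called between E13.5 ONL and nerve (adjusted p = 8.11e-05, edgeR). Olfr53 (chr7:140646452-140653085, plus strand) had 12.7, 12.7, 4.40 and 13.4 CPM, at most 0.292 in other early libraries, and 1.22 in E16.5 ON library 4 (-7.51 ± 1.08 SE by the second grouping, adjusted p = 2.76e-05, edgeR). Olfr61 (chr7:140628970-140638798, plus strand), its neighbour of the same family MOR253, had 2.67, 7.52, 1.41 and 3.00 CPM and at most 0.162 elsewhere (adjusted p = 2.11e-05 by the second grouping, edgeR).
Olfr53 (chr7:140652311-140652370, plus strand): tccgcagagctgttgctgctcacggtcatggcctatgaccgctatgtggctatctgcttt
Olfr61 (chr7:140638030-140638089, plus strand): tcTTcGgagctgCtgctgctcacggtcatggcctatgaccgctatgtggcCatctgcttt
These stretches of Olfr53 and Olfr61 differ at 5 of 60 bases (capitals), and over the coding sequence they are 90.2% identical, with further copies at 91.96% (Olfr45, for Olfr53) and 91.5% (Olfr541, for Olfr61), so part of their reads could be exchanged or lost.

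Olfr1026 (chr2:85921558-85924623, plus strand) was shared between stages. It had 17.0, 50.02, 4.81 and 46.2 CPM in the 4 libraries, 0 to 5.54 in the libraries that matched E13.5 ON, and 3.77, 11.9, 1.49 and 0 in E16.5 ON. By the second grouping it was 4.18 ± 0.97 SE lower in E13.5 than in E11.5 nerve (adjusted p = 0.00180, edgeR). Olfr1297 had 7.36, 1.57, 2.32 and 4.46 CPM in the 4 libraries and at most 0.292 elsewhere (-6.07 ± 0.90 SE by the second grouping, adjusted p = 9.52e-06, edgeR), and Olfr12 had 2.25, 0, 0.622 and 7.82, with 70.3% of its counts in 1 library. Olfr1342 (chr4:118687486-118692756, minus strand) was as high in E13.5 nerve (2.51 to 6.66 CPM) as in the 4 libraries (2.45 to 10.2) and nearly gone at E16.5, with a highest value of 0.130. It was called lower in E16.5 than in E13.5 nerve by label (adjusted p = 0.000936) and by the second grouping (adjusted p = 1.21e-05, edgeR).

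Each of the 7 libraries that matched E13.5 ON was led by Olfr231 or by Olfr745. Olfr231 also led the 4 that matched E11.5 ON. Olfr745, a class II receptor, ranged from 9.90 to 69.3 CPM with a median of 28.2 in the 7 libraries that matched E13.5 ON, was 0 in the 4 that matched E11.5 ON and in the 5 that matched E13.5 ONL, and was 0.186, 0.185, 2.66 and 1.27 in E16.5 ON. No library of another group reached the lowest of the 7. It was called higher in E13.5 than in E11.5 nerve by the second grouping (adjusted p = 1.29e-06, edgeR). The comparison by label also passed (adjusted p = 0.0157, edgeR), but its libraries labelled E11.5 ON matched E13.5 ONL. E16.5 nerve was 5.12 ± 0.90 SE lower than E13.5 nerve by the second grouping (adjusted p = 0.000224) but not by label (-4.96 ± 1.88 SE, adjusted p = 0.0557, edgeR). Olfr578 had 0.349 to 23.5 CPM in the 7, with a median of 8.58, and 0 in the other early libraries. Olfr15 had 8.27 to 34.4 CPM in the 7 and 5.35 to 33.9 in the 4 that matched E11.5 ON, and the difference between them missed the threshold (0.35 ± 0.77 SE, adjusted p = 0.758, edgeR). Olfr78 had 2.82 to 25.3 CPM in the 7 and 0, 12.6, 2.53 and 4.75 in the 4. Olfr222 (chr11:59570255-59576235, minus strand) had 9.75 CPM in 1 of the 7, which held 50.3% of its counts.

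Over the early comparisons 207 members passed the filter. Members that passed only because they were high in 1 group had to differ from it elsewhere, so the counts called are not support for a general change. Most libraries labelled E13.5 ONL matched E11.5 ON, and all labelled E11.5 ON matched E13.5 ONL. By-label counts that use these 2 groups therefore do not compare the tissues and stages that they name. By label, 12 were higher and 60 lower in E13.5 ONL than in E13.5 ON (8.88% and 8.81% over all 19332 genes), against 1 and 146 by the second grouping (15.4% and 16.1%). The 1 higher by the second grouping was Olfr1270 (adjusted p = 0.00142, edgeR), which had 0, 0.216, 0.455, 0.623 and 0.0716 CPM in the 5 ONL libraries and 1 library with a count among the 7 of nerve. E13.5 ON was higher than E11.5 ON for 53 members and lower for 1 by label (9.31% and 8.18%), and higher for 134 and lower for 14 by the second grouping (20.2% and 16.4%). E16.5 ON was higher than E13.5 ON for 14 and lower for 4 by label (12.4% and 12.6%), and for 17 and 11 by the second grouping (15.2% and 13.6%). The study's methods give fewer embryos than there are early libraries, so some share an embryo and these p-values are too small.

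Between E13.5 and E16.5 nerve the calls by label included Olfr656 and Olfr827, both higher at E16.5. Olfr656 was 0 in every early library and 0.774 to 4.39 CPM at E16.5 (adjusted p = 0.000684), and Olfr827 rose to 11.2 CPM in 1 library (6.96 ± 1.42 SE, adjusted p = 0.00127, edgeR). Olfr558 was 2.70 ± 0.84 SE higher at E16.5 (adjusted p = 0.0207) and Olfr561 was 3.21 ± 1.07 SE higher (adjusted p = 0.0350, edgeR). Olfr613 was 1.30 ± 0.35 SE lower (adjusted p = 0.00709, edgeR). By the second grouping these 5 also passed (adjusted p = 0.000311, 0.00166, 0.00738, 0.0214 and 0.0105 in the order Olfr656, Olfr827, Olfr558, Olfr561 and Olfr613). DESeq2 by label called 0 of the 207 members higher and 2 lower, Olfr613 and Olfr1342, against 2845 higher and 2499 lower of 19332 over all genes. Olfr827 and Olfr558 thus lost their calls, and Olfr656 and Olfr561 had no adjusted p. With the replicate number as a block 2 of 128 were higher and 1 lower, against 1282 and 943 of 17037 over all genes. By label 5 of 6 smooth muscle and pericyte genes were also higher at E16.5 and none lower (median 2.40). Myh11 had 0.296 to 11.53 CPM in the libraries labelled E13.5 ON and 12.8 to 74.0 in E16.5 ON. Among other lists, 3 of 8 ensheathing and Schwann cell genes and 2 of 5 sustentacular genes tested were higher and none lower. Of 16 signalling and transport genes 3 were higher and 1 lower. Of 11 regulators of receptor choice 4 were lower, and of 5 trigeminal neuron genes tested 3 were lower, with none higher. Olfr78, the neighbour of Olfr558 and Olfr561, did not rise, with 782 counts over the 7 libraries labelled E13.5 ON and 253 over the 4 of E16.5 ON. The part of any of these lists was not tested.

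By group mean and the second grouping, 218 members were highest in E16.5 ON, 127 in E13.5 ON, 61 in E11.5 ON, 5 in outer ONL, 3 in inner ONL, 2 in TN and none in E13.5 ONL. Class I receptors made up 20.2% of those highest in E16.5 ON, 20.5% of those highest in E13.5 ON and 4.92% (3 of 61) of those highest in E11.5 ON. By label 64 members were highest in E13.5 ONL, of which 4.69% were class I. These shares describe the members and were not tested.

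Sequence upstream of the start was examined where RefSeq (GRCm38.p6) places a start within 150 bases of a GENCODE transcript start and not at an ATG. This rule was used since 686 of 948 Olfr windows begin at the coding sequence. Of the members, 323 had a window and 84 met this rule. The homeodomain core TAATNA (either strand, overlaps allowed), of the kind that Lhx2 binds, was found in the 250 bases upstream of 53 of the 84 (63.1%), in 65.3% of 239 Olfr windows, and in 19.5% of 20411 windows of any gene under the same rule. The Olf/Ebf motif TCCCNNGGGA was in 0 of the 84 and 0.911% of the 20411. These letters are descriptions of the windows and not sites. The windows of 5 receptors described above are shown, those of the ONL pair Olfr32 and Olfr1270, of Olfr558 of the TN, of Olfr745 of E13.5 nerve and of Olfr53 of the earliest libraries, with TAATNA and its reverse complement in capitals.
Olfr32 (chr2:90142294-90142543, minus strand): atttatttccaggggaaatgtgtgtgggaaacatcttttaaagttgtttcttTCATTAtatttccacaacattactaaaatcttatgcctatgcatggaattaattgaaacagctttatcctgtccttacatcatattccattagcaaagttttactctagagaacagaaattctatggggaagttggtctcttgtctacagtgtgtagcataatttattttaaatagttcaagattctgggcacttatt
Olfr1270 (chr2:90150037-90150286, minus strand): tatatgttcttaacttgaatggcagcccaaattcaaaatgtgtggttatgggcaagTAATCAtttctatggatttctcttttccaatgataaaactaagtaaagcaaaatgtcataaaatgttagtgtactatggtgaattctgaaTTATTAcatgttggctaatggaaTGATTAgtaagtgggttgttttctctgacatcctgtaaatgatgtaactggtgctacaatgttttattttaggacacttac
Olfr558 (chr7:102702073-102702322, plus strand): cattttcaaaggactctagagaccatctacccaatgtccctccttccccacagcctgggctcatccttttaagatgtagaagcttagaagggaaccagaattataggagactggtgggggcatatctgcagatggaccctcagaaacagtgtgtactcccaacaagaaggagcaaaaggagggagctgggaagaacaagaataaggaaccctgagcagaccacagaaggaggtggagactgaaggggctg
Olfr745 (chr14:50641945-50642194, plus strand): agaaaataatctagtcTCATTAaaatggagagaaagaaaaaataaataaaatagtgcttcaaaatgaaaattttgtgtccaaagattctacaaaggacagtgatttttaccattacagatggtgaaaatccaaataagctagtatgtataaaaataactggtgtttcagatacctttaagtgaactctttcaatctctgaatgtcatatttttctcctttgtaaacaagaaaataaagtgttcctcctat
Olfr53 (chr7:140646202-140646451, plus strand): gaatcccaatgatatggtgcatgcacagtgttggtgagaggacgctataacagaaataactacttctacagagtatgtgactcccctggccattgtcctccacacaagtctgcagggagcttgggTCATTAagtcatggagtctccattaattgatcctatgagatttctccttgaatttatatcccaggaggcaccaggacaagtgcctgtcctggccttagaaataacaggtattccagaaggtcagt
TAATNA occurred 1 time upstream of Olfr32, 3 times upstream of Olfr1270, 1 time each upstream of Olfr745 and Olfr53, and not in the window of Olfr558. The windows of Olfr1270 and Olfr745 lie inside the annotated genes, upstream of a transcript that starts within them, and that of Olfr558 overlaps its gene in part.

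Close copies limit the counts of other members. Coding sequences were aligned, or whole transcripts for genes with no annotated coding sequence. Over at least 300 bases 316 members had another Olfr gene that aligned, with a median identity of 91.9%. Of these, 92 had a copy at 95% or more and 15 at 98% or more. For those genes reads may have been assigned to the wrong copy or dropped.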

How the data were processed

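Laser-microdissected tissue was amplified with SMART-Seq v4, which does not keep strand, and sequenced from Nextera XT libraries. The authors deposited raw counts per Ensembl gene for the 31 libraries; per the labels and the study's methods, reads were aligned to mm10 with TopHat2 2.1.0 and counted with HTSeq. The deposited counts were used without change, and 1 blank row was left out. Replicates are separate pieces of tissue, and p-values measure the spread between libraries, part of which may be technical.

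Symbols, coordinates and biotypes came from GENCODE M21 (47310 of 47729 genes), receptor class and family from RefSeq synonyms. Counts were scaled by TMM and tested with edgeR 4.0.16 in R 4.3.3 (quasi-likelihood, filterByExpr with a minimum count of 10 and total of 15, Benjamini-Hochberg over all genes tested). The 5 E16.5 comparisons were fitted on the 15 E16.5 libraries and the 3 early ones on all 31, by label, with the grouping by published means as an alternative. SE is the log2 fold change divided by the square root of F. Alternatives were DESeq2 1.42.0, other scaling, no filter, other fits and leaving out each library. Coding sequences, or transcripts where none is annotated, were aligned with blastn 2.17.0 and Biopython 1.88. Protein sequences were not used here.

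Same-numbered outer ONL and ON libraries at E16.5 deviated together (correlations 0.131 to 0.262), so a fit of those 2 groups with the replicate number as a block is given; in the other comparisons at least 1 correlation was under 0.1.

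The fitting code was tested on simulated data. A count of 3 was the floor; intervals and floors cover counting error only.

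Named members were the 12 with the largest sums, those called in an E16.5 comparison (the 8 of smallest adjusted p where more were called), up to 8 with over 50% of their counts in 1 library, and up to 8 with 10 or more counts in TN. The members, the gene lists (receptor signalling and transport, receptor choice, immature neurons, progenitors, sustentacular, vomeronasal, bulb, ensheathing and Schwann, trigeminal and smooth muscle) and the tests were chosen with earlier results of these data known.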

Additional observations from a re-analysis of the deposited data

Results flagged for a closer look

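In groups of 4 to 10 libraries, 1 library was taken to lie apart when its gap to the nearest other, divided by the range, passed Dixon's 95% value, which chance does in about 1 in 20 groups. None of 12 tests of summed reads and of members detected was flagged, and 33 of 121 tests of a named gene within a labelled group were; the values follow in CPM.

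At E16.5, ON library 1 was apart for Olfr1054 (17.3), Olfr520 (1.67) and Olfr222 (1.36), ON library 2 for Olfr656 (4.39), and ON library 4 for Olfr485 (12.8) and Olfr53 (1.22). Outer ONL library 3 was apart for Olfr433 (1.92) and Olfr231 (0.853), outer ONL library 4 for Olfr745 (1.89), and inner ONL library 2 for Olfr78 (1.504).

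Among the libraries labelled E13.5 ON, library 2 was apart for Olfr222 (9.75), Olfr485 (6.01), Olfr1372-ps1 (5.72), Olfr53 (0.292), Olfr1297 (0.292) and Olfr827 (0.234), library 3 for Olfr672 (12.6), Olfr558 (7.27) and Olfr748 (5.89), and library 7 for Olfr424 (8.53) and Olfr19 (6.64).

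Among those labelled E13.5 ONL, library 1, which matched the E13.5 ON mean, was apart for Olfr745 (28.2), Olfr32 (4.56), Olfr578 (1.57), Olfr544 (1.41), Olfr827 (0.497) and Olfr485 (0.414), library 3 for Olfr421-ps1 (11.8) and Olfr1054 (0.217), and library 5 for Olfr12 (7.82). Among those labelled E11.5 ON, library 4 was apart for Olfr282 (0.415) and Olfr1342 (0.415) and library 1 for Olfr1372-ps1 (0).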

How the results depend on the processing

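For outer ONL against ON (60 called by the reported fit), DESeq2 called 39, no filter 248 of 400 tested, the 2 groups alone 17 of 23, and the replicate block 16 of 23. Over all genes these gave 2134 higher and 2861 lower of 17800, 1926 and 2781 of 31320, and 24.2% and 31.4% in either direction. Leaving out 1 library gave 24 to 61 members, with 38, 28, 28 and 24 without ON libraries 1, 2, 3 and 4, where 47, 39, 37 and 31 members were tested. Over all genes it gave 1564 to 1844 higher and 2132 to 2636 lower. For inner ONL against ON (66), no filter gave 281, all 31 libraries 111 of 207, the 2 groups alone 17 of 19 and the replicate block 17 of 19. Over all genes these gave 3402 higher and 3998 lower of 31320, 2967 and 3008 of 19332, 3167 and 3577 of 16338, and 2994 and 3402 of 16338. Leaving out 1 library gave 28 to 65 members, with 42, 34, 34 and 28 without ON libraries 1 to 4. Over all genes it gave 3015 to 3225 higher and 3315 to 3535 lower. For inner against outer ONL (2), no filter gave 4, all 31 libraries 1, and the 2 groups alone and the replicate block 0. Over all genes these gave 1644 higher and 1363 lower of 31320, 1007 and 651 of 19332, 1623 and 1208 of 15717, and 1598 and 1123 of 15717. Leaving out 1 library gave 1 to 3 members, and 1 without outer ONL library 2, 3 or 4 or any inner ONL library. Over all genes it gave 1335 to 1720 higher and 972 to 1390 lower. For ON against TN (64), no filter gave 268, against 2875 higher and 2231 lower of 31320 over all genes. Leaving out 1 library gave 25 to 94 members, with 40, 32, 30 and 25 without ON libraries 1 to 4. Over all genes it gave 2116 to 2472 higher and 1674 to 1937 lower. For outer ONL against TN (9), no filter gave 19 and the replicate block 5 of 8. Over all genes these gave 2654 higher and 2841 lower of 31320, and 1494 and 1823 of 16160. Leaving out 1 library gave 5 to 12 members, with 5 without outer ONL library 4. Over all genes it gave 2241 to 2764 higher and 2371 to 2920 lower.

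For E13.5 ONL against ON by label (72), DESeq2 gave 45, the 2 groups alone 6 of 55, the replicate block 0 of 55, the second grouping 147, and the second grouping with 2 groups alone, added after seeing the data, 33 of 36. Over all genes these gave 1856 higher and 2311 lower of 19332, 572 and 199 of 16583, 2 and 2 of 16583, 2980 and 3107 of 19332, and 2892 and 2826 of 16333. Leaving out 1 library gave 38 to 126 members, with 126 without ONL library 1 and 41, 38, 38 and 38 without ONL libraries 2 to 5. Over all genes it gave 1016 to 2482 higher and 858 to 3555 lower. For E13.5 against E11.5 ON (54), the second grouping gave 148 and the replicate block 0 of 58. Over all genes these gave 3903 higher and 3168 lower of 19332, and 14 and 0 of 16712. Leaving out 1 library gave 16 to 92 members, with 92 without E13.5 ON library 1 and 30, 16, 16 and 20 without E11.5 ON libraries 1 to 4. Over all genes it gave 1234 to 2415 higher and 1118 to 2575 lower. For E16.5 against E13.5 ON (18), DESeq2 gave 2, no filter 48, the second grouping 28 and the replicate block 3 of 128. Over all genes these gave 2845 higher and 2499 lower of 19332, 2201 and 1837 of 33331, 2930 and 2634 of 19332, and 1282 and 943 of 17037. Leaving out 1 library gave 10 to 21 members, with 10 without E16.5 ON library 4. Over all genes it gave 1845 to 2627 higher and 1260 to 2486 lower. The E16.5 groups share embryos, per the study's methods, but no source used here ties a replicate number to an embryo.

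The second grouping reversed the direction of 10 called genes (log2 fold change). In E13.5 ONL against ON these were Olfr1026 (-7.87), Olfr258-ps1 (-3.33, and -3.30 with 2 groups alone), Olfr53 (-3.09), Olfr61 (-2.07), Olfr1297 (-1.44) and Olfr142 (2.16). In E13.5 against E11.5 ON they were Olfr424 (-1.50 in both fits), Olfr1342 (-0.48 in both), Ebf1 (-0.24 in both) and Olfr1270 (1.34). The other 151 of 161 called pairs of a named gene and a comparison kept their direction under the alternatives run.

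A minimum sum of 10 or 100 in place of 30 gave 652 or 185 members. Mean members detected at 1 or more and 10 or more counts in place of over 3 were 17.5 and 3.75 for E11.5 ON, 38.5 and 9.75 for outer ONL, 27.5 and 4.75 for inner ONL, 22.7 and 7.67 for TN, and 78.1 at 10 or more for E13.5 ON, by label. With few counts per receptor outside the nerve, absence there is not shown at this depth.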
